A study of Homo sapiens with 4 samples.

Results

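The genes examined here are 10 leukocyte adhesion genes, chosen by name as integrin subunits of bone marrow adhesion and the ICAM ligands that such integrins bind. They are 4 integrin alpha subunit genes (ITGA4, ITGAL, ITGAE and ITGAM), 3 beta subunit genes (ITGB1, ITGB7 and ITGB2) and 3 ligand genes (ICAM1, ICAM2 and ICAM3). Each of the 10 names matched 1 of the 56809 gene rows. RNA came from NCI-H929, an established human multiple myeloma line, in 2 libraries of cells with a BCL7A knockout (KO) and 2 of control cells. Both groups expressed Cas9, passed 3 days of puromycin selection and then received 0.5 ug/ml doxycycline for 24 h, which induces the KO construct. The sources differ on the controls, which are wild type by their titles and carriers of a control construct by the protocol. BCL7A, a subunit of BAF chromatin remodelling complexes, had 1.31 and 1.19 CPM (counts scaled to library size, with TMM factors) in the KO libraries, against 42.9 and 45.7 CPM in the control libraries.

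An integrin is a pair of 1 alpha and 1 beta chain, and neither chain reaches the cell surface in quantity without a partner. The alpha 4 chain pairs with beta 1 to bind VCAM1 and fibronectin, and with beta 7 to bind MADCAM1, while alpha E pairs with beta 7 to bind E-cadherin. The alpha L and alpha M chains pair with beta 2, and the alpha L beta 2 pair (LFA-1) binds ICAM1, ICAM2 and ICAM3, which are immunoglobulin superfamily proteins. In myeloma, integrins of these families hold tumour cells in the bone marrow. Only mRNA was measured here, so surface pairs were not observed.

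Upstream sequences are shown for ITGB7 and ITGA4, the pair of partner genes that differed most upward between the groups, and for ICAM1, whose window alone held a whole match to a searched pattern upstream of the start. RefSeq tables (GRCh38.p14) held 10 promoter windows for 7 of the 10 genes, and the 250 bases before each annotated start are printed 5′ to 3′ on the strand of the gene. These RefSeq starts differ from the ends of the GENCODE gene spans given below. By those spans the ICAM1 stretch lies inside the gene, as do most of the ITGA4 stretch and part of the ITGB7 stretch. Capitals mark GGNNNTTCC, a pattern like that bound by NF-kB factors.
ICAM1 (chr19:10270870-10271119, plus strand): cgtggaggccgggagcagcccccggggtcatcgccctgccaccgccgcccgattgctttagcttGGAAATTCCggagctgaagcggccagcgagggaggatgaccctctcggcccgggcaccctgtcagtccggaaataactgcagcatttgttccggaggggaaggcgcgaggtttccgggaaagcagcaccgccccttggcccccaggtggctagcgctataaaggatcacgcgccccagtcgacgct
ITGB7 (chr12:53207252-53207501, minus strand): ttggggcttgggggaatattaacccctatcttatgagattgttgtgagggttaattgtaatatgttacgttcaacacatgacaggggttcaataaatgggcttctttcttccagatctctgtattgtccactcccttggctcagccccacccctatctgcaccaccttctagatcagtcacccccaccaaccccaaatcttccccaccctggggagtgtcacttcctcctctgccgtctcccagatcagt
ITGA4 (chr2:181457136-181457385, plus strand): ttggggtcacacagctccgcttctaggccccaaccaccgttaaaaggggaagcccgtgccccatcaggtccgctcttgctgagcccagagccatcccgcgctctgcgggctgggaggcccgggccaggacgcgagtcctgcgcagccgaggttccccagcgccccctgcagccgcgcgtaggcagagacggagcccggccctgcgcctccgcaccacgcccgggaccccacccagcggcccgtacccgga

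The ICAM1 match read GGAAATTCC on the strand of the gene, from 186 to 178 bases before the start, and the same bases match on the other strand as GGAATTTCC. One of the 3 ICAM3 windows also matched, on the other strand with GGACCTTCC, where the match runs across the annotated start. Of all 35116 promoter windows, 20.1% held this pattern on either strand. No window of these genes held GAAANNGAA, a pattern like that of IRF factors, or GGAANNGAA, a pattern like that of ETS and IRF factors together. These 2 patterns, which can overlap each other, were in 8.11% and 7.79% of all windows. GC content of the upstream stretch was 66.0% at ICAM1, 49.6% at ITGB7 and 72.8% at ITGA4. A match describes letters in a window and not a bound site.

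The sum of counts per library was 38671744 and 40799624 in the KO group, against 17567202 and 20153596 in the control group, so depth differed along with the group. All 11 plasma and myeloma cell markers, of which SDC1 also stands among the niche receptors, were expressed. Their summed levels were 13363 and 13376 CPM in KO libraries and 7805 and 7838 CPM in control libraries. All 11 were called higher in KO libraries by edgeR (adjusted p under 0.05), as were 36.4% of all tested genes. IRF4 and NSD2 rose by log2 fold changes of only 0.22 and 0.23. Library totals in place of TMM factors moved the median of all genes by -0.28, more than these rises. Markers of T and NK cells summed to 14.6 and 14.7 CPM in KO libraries, against 29.7 and 30.2 CPM in control libraries. All 5 tested genes of 10 were lower, the other 5 were not tested, and CD3D was at 0 counts in all libraries. Of the lower ones, CD3G, CD247, KLRD1 and PRF1 passed the filter on low counts through the control libraries alone. Myeloid markers summed to 1.84 to 2.25 CPM in KO and 1.71 to 2.38 CPM in control libraries, with 2 of 10 higher, 2 lower, and MPO and TYROBP at 0 in all libraries. The 2 lower ones, FCER1G and CSF3R, passed the filter on low counts through the control libraries alone. The 2 higher ones, CSF1R and S100A9, depended on the KO libraries to pass it. Endothelial and stromal markers summed to 0.433 to 0.627 CPM in KO libraries, against 11.2 to 11.5 CPM in control libraries. Of these sums, COL1A1 made up 0.334 CPM in KO and 9.85 CPM in control libraries. Both tested genes of 10, COL1A1 and COL1A2, were lower, and both passed the filter through the control libraries alone. The other 8 were not tested, and KDR was at 0. Megakaryocyte and platelet markers summed to 0.514 to 0.541 CPM in KO and 0.180 to 0.621 CPM in control libraries, with 0 of 6 tested and PPBP at 0. In bulk RNA, fewer cells of a kind and less RNA per cell cannot be told apart.

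A gene is said to have risen or fallen in KO libraries where edgeR's quasi-likelihood test over 17885 genes gave an adjusted p under 0.05. Of the 10 adhesion genes, 6 rose and 4 fell, while 76.2% of all tested genes passed the threshold, 36.4% upward and 39.8% downward. Passing was thus common among all genes, and the size of a change says more than its call. A change of at least 2-fold was seen upward in ITGA4 and ITGB7 (9.47% of tested genes did so) and downward in ITGB2, ITGAM and ICAM3 (23.5% did so). The median log2 fold change was 0.29 over the 10 genes and -0.06 over all tested genes. All 10 passed the filter on low counts, ITGAM through the control libraries alone. The KO and control libraries did not overlap for any of the 10 genes, as for 87.4% of all tested genes.

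**Figure D1:**
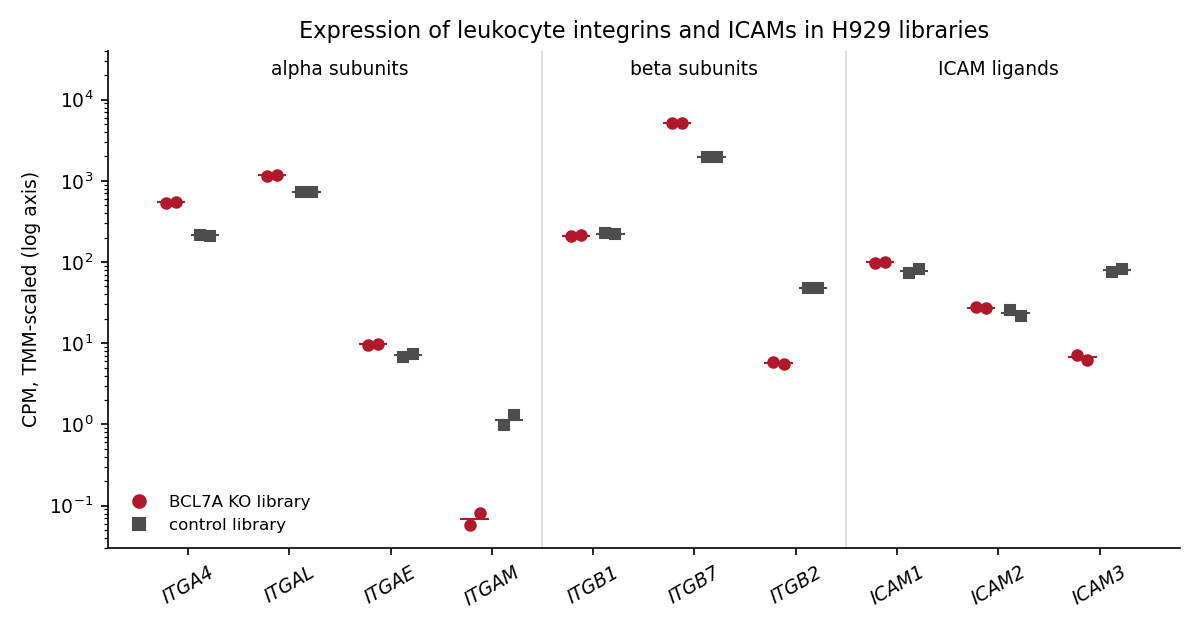
Level of each gene in each library, in CPM scaled with TMM factors, on a log axis. Red circles are the 2 BCL7A KO libraries, grey squares the 2 control libraries and short lines group means; ITGB7 stands highest at 5132 to 5148 CPM in KO and 1946 to 1973 CPM in control libraries, and ITGB2, ITGAM and ICAM3 lie far lower in KO libraries.

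Among the alpha subunits, ITGA4 (chromosome 2, 181457202 to 181536187, plus strand, GRCh38) showed the strongest rise. ITGA4, the chain shared by the VCAM1 and MADCAM1 receptors, had 539 and 550 CPM in KO libraries, against 218 and 211 CPM in control libraries. Both KO libraries stood far above both control libraries, with a ratio of means of 2.55 (log2 fold change 1.35 with SE 0.03, adjusted p = 1.65e-25). ITGAL (chromosome 16, 30472658 to 30523185, plus strand), the alpha chain of LFA-1, had 1161 and 1173 CPM in KO libraries, against 727 and 721 CPM in control libraries. That is 1.61-fold higher in KO, and the groups lie far apart relative to their own spread (log2 fold change 0.69 with SE 0.02, adjusted p = 8.77e-21).

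The other alpha subunits were scarce. ITGAE (chromosome 17, 3714628 to 3801243, minus strand), the E-cadherin receptor chain CD103, had 9.54 and 9.82 CPM in KO libraries, against 6.83 and 7.30 CPM in control libraries (log2 fold change 0.45 with SE 0.12, adjusted p = 0.00158). This call was lost with KO counts thinned to control depth (adjusted p = 0.0598) and with library totals in place of scaling factors (adjusted p = 0.203). ITGAM (chromosome 16, 31259967 to 31332892, plus strand), the alpha chain of the myeloid integrin CD11b/CD18, had 2 and 3 counts in KO libraries, against 19 and 29 counts in control libraries. In scaled levels these are 0.0570 and 0.0812 CPM in KO libraries, against 0.983 and 1.31 CPM in control libraries, 16.6-fold lower in KO (log2 fold change -3.97 with SE 0.59, adjusted p = 7.35e-07). The fitted change ranged from -7.48 to -3.73 over the alternatives, all of which kept the call. Of the 10 myeloid markers 4 were tested: FCER1G (3 and 2 counts in KO, against 23 and 20 counts in control libraries) and CSF3R (0 and 1 counts in KO, against 11 and 8 counts in control libraries) fell, while CSF1R and S100A9 rose. FCER1G and CSF3R passed the filter on low counts through the control libraries alone, and CSF1R through the KO libraries alone. S100A9, with 34 and 38 counts in KO, against 6 and 4 counts in control libraries, also depended on the KO libraries to pass. MPO and TYROBP were at 0, and the part of these myeloid markers in the ITGAM difference was not tested.

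Beta subunits differed from each other in direction. ITGB7 (chromosome 12, 53191318 to 53207307, minus strand), the partner of alpha 4 and alpha E, had 5132 and 5148 CPM in KO libraries, against 1946 and 1973 CPM in control libraries. It was 2.62-fold higher in KO (log2 fold change 1.39 with SE 0.02, adjusted p = 6.71e-29) and ranked 16 of 17885 tested genes by mean CPM. ITGB1 (chromosome 10, 32900319 to 33005792, minus strand), the beta chain shared by most matrix receptors, had 209 and 214 CPM in KO libraries, against 225 and 221 CPM in control libraries. The means differed by a ratio of 0.949 (log2 fold change -0.07 with SE 0.03, adjusted p = 0.0239). That call was lost with DESeq2 (adjusted p = 0.116), with the replicate number as a block (adjusted p = 0.0508) and without KO replicate 1 or 2 (adjusted p = 0.375 and 0.118), and the sign turned with no filter on low counts (0.0090). ITGB2 (chromosome 21, 44885953 to 44931989, minus strand), the beta chain of LFA-1 and CD11b/CD18, had 5.89 and 5.58 CPM in KO libraries, against 48.3 and 48.2 CPM in control libraries. The KO mean was below the control mean by 8.41-fold (log2 fold change -3.07 with SE 0.08, adjusted p = 1.36e-23), opposite in direction to its alpha partner ITGAL. Markers of T and NK cells, which also carry ITGB2, summed lower in the KO libraries, with CD3E making up most of the sums given above. Their part in the ITGB2 difference was not tested.

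The ligands split in the same way. ICAM1 (chromosome 19, 10270835 to 10286615, plus strand), the best known ligand of LFA-1, had 98.4 and 99.3 CPM in KO libraries, against 73.0 and 82.3 CPM in control libraries (log2 fold change 0.35 with SE 0.04, adjusted p = 1.60e-07). With library totals in place of scaling factors its change was 0.06 (adjusted p = 0.191). ICAM2 (chromosome 17, 64002594 to 64020634, minus strand), a ligand of LFA-1 on endothelial cells and leukocytes, had 28.1 and 27.0 CPM in KO libraries, against 25.8 and 21.4 CPM in control libraries (log2 fold change 0.23 with SE 0.08, adjusted p = 0.00827). The ICAM2 call was lost with upper-quartile factors, with DESeq2 and without control replicate 2 (adjusted p = 0.264, 0.0927 and 0.371), and the direction turned with library totals (-0.05, adjusted p = 0.538). ICAM3 (chromosome 19, 10333776 to 10339823, minus strand), the ICAM of resting leukocytes, had 7.20 and 6.20 CPM in KO libraries, against 75.9 and 81.8 CPM in control libraries. It was 11.8-fold lower in KO (log2 fold change -3.56 with SE 0.07, adjusted p = 2.18e-25), and no KO library came near a control library.

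**Figure D2:**
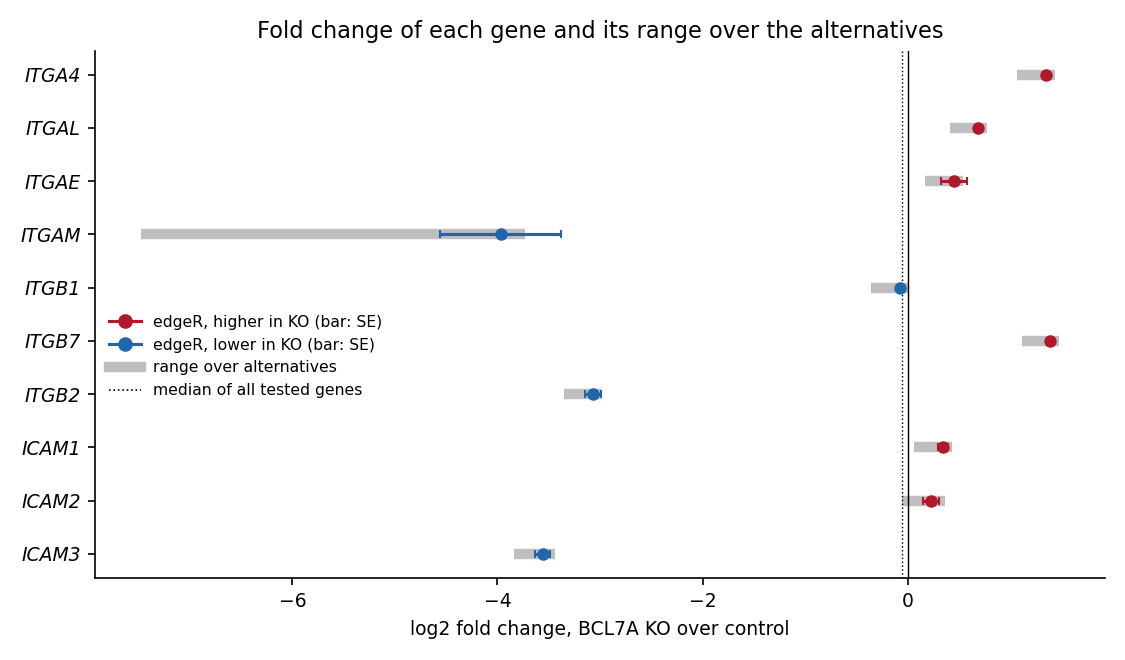
Log2 fold change of BCL7A KO over control for each gene (point, with its SE as a bar) and the range over the 16 alternatives (grey band); the dotted line is the median of all tested genes, -0.06. ITGA4, ITGAL, ITGB7, ITGB2, ITGAM and ICAM3 keep clear of 0, while the bands of ITGB1 and ICAM2 cross it.

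Levels of different genes were compared within a group as TPM, counts divided by the length of the longest annotated transcript. In KO libraries the order was ITGB7 (4199 ± 17.7 TPM, SD, n = 2), ITGAL (524 ± 4.74 TPM), ITGA4 (305 ± 4.997 TPM), ITGB1 (131 ± 2.29 TPM), ICAM1 (71.2 ± 0.585 TPM) and ICAM2 (48.4 ± 1.29 TPM). ICAM3 (6.30 ± 0.656 TPM) and ITGAE (5.88 ± 0.134 TPM) followed with overlapping libraries, then ITGB2 (2.81 ± 0.105 TPM) and ITGAM (0.0341 ± 0.00853 TPM). In control libraries no neighbours in the order overlapped. There ITGB7 (1970 ± 10.5 TPM) and ITGAL (400 ± 3.95 TPM) again led, and ITGB1 (170 ± 2.73 TPM) stood above ITGA4 (147 ± 4.10 TPM). ICAM3 (91.2 ± 4.43 TPM) was the highest of the ICAMs in control libraries, ahead of ICAM1 (68.8 ± 5.53 TPM) and ICAM2 (51.0 ± 6.98 TPM). ITGB2 (29.1 ± 0.177 TPM), ITGAE (5.28 ± 0.224 TPM) and ITGAM (0.695 ± 0.136 TPM) came last. With the median transcript length, ICAM3 stood below ITGB2 in KO libraries, and in control libraries ICAM1 stood above ICAM3 and ITGB2 above ICAM2. TPM carries no TMM factor, so differences between groups are read on the CPM scale.

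The balance between chains that pair or compete was read as a ratio of levels per kilobase of the longest transcript inside each library. No scaling between libraries affects such a ratio, but its size depends on the transcript length used. ITGB7 exceeded ITGB1 by 32.4 and 31.8 times in KO libraries, against 11.4 and 11.8 times in control libraries. Of the summed level of all 8 beta subunit genes, ITGB7 made up 95.9% and 95.8% in KO libraries, against 89.9% and 90.1% in control libraries. The 2 candidate partners of alpha 4 thus stood further apart in KO libraries.

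Relative to ITGB7, ITGA4 barely differed between the groups, at 0.0719 and 0.0732 in KO libraries, against 0.0765 and 0.0730 in control libraries, and the groups overlapped. Relative to ITGB1, ITGA4 was 2.33 and 2.32 in KO libraries, against 0.875 and 0.860 in control libraries. In the LFA-1 pair, ITGAL exceeded ITGB2 by 181 and 193 times in KO libraries, against 13.8 and 13.7 times in control libraries. Beta 2 mRNA was thus the scarcer partner of that pair in all 4 libraries. The ligand ratio of ICAM1 to ICAM3 was 10.5 and 12.3 in KO libraries, against 0.736 and 0.770 in control libraries. With the median transcript length, ICAM1 (133 to 150 TPM) stood above ICAM3 (80.5 to 86.6 TPM) in control libraries too. With 2 libraries against 2, an exact two-sided permutation test of a ratio cannot go below p = 0.333, so none was used.

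**Figure D3:**
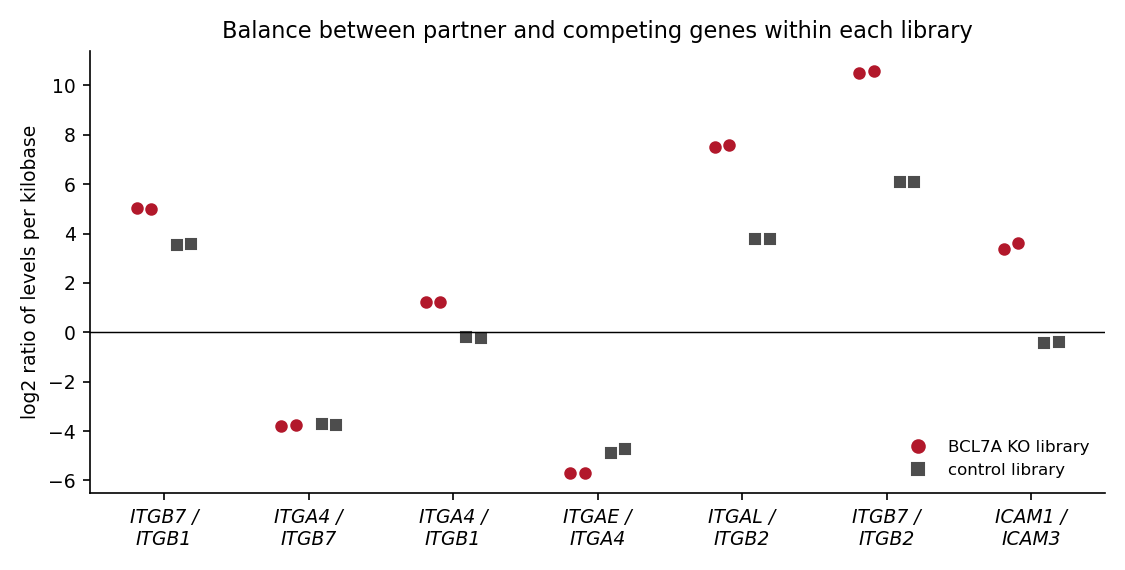
Log2 ratio of levels per kilobase between 2 genes within each library (red circles, BCL7A KO; grey squares, control). The ratio of ITGA4 to ITGB7 coincides between the groups, near -3.78 in KO and -3.74 in control libraries, whereas ITGAL over ITGB2 averages 7.54 in KO and 3.78 in control libraries.

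Position on the chromosome was set beside the changes, since the nearest genes share regional features. ICAM1 and ICAM3 lie on the same stretch of chromosome 19, yet moved apart. Between them ICAM5, a neuronal ICAM, had 14.2 and 14.5 CPM in KO libraries, against 15.9 and 16.99 CPM in control libraries (log2 fold change -0.20 with SE 0.09, adjusted p = 0.0449), and ICAM4 had at most 2 counts in a library. RAVER1, which encodes an RNA-binding protein and lies 136 bases from ICAM3, rose (log2 fold change 0.59 with SE 0.03, adjusted p = 4.43e-15). TYK2, a Janus kinase gene on the other side, rose as well (0.50 with SE 0.04, adjusted p = 3.87e-13). ICAM3 therefore fell between nearest protein-coding neighbours that rose. Further off between ICAM1 and ICAM3, ZGLP1 fell (log2 fold change -1.61 with SE 0.29, adjusted p = 1.6e-05). FDX2 in the same stretch rose (0.45 with SE 0.11, adjusted p = 5.78e-04). ITGB2 likewise fell far more than PTTG1IP (log2 fold change -0.73 with SE 0.04, adjusted p = 4.26e-16), while FAM207A on its other side rose (0.81 with SE 0.07, adjusted p = 8.91e-12).

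The neighbours of ITGAM, which like ITGAM passed the filter on low counts through the control libraries alone, were low as well. TRIM72 had 8 and 12 counts in KO libraries, against 32 and 43 counts in control libraries (log2 fold change -2.68 with SE 0.42, adjusted p = 1.54e-06), and ZNF843 had 2 and 2 counts in KO libraries, against 21 and 16 counts in control libraries (-3.91 with SE 0.65, adjusted p = 4.48e-06). Its relatives on the same stretch, ITGAX and ITGAD, had no more than 6 counts in any library, too few for a test. Beside ITGAL, which rose, ZNF768, a zinc finger gene 816 bases away, had 10.2 ± 0.125 CPM in KO and 104 ± 2.25 CPM in control libraries (log2 fold change -3.35 with SE 0.06, adjusted p = 1.28e-27). At ITGB7 and ITGA4 neither neighbour rose as far as the integrin gene. RARG and CERKL did not pass the threshold (log2 fold change 0.14 and -0.52, adjusted p = 0.254 and 0.307). CSAD fell (-0.59, adjusted p = 3.61e-05) and UBE2E3 rose (0.33, adjusted p = 1.69e-04). At ICAM1, ITGAE, ICAM2 and ITGB1, a neighbour had a higher log2 fold change than the adhesion gene. These neighbours were MRPL4, P2RX5, SCN4A and PARD3 (0.97, 1.18, 0.56 and 1.33). On the other side of these genes, ICAM5, NCBP3, ERN1 and CCDC7 had -0.20, 0.23, -0.20 and -0.81.

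**Figure D4:**
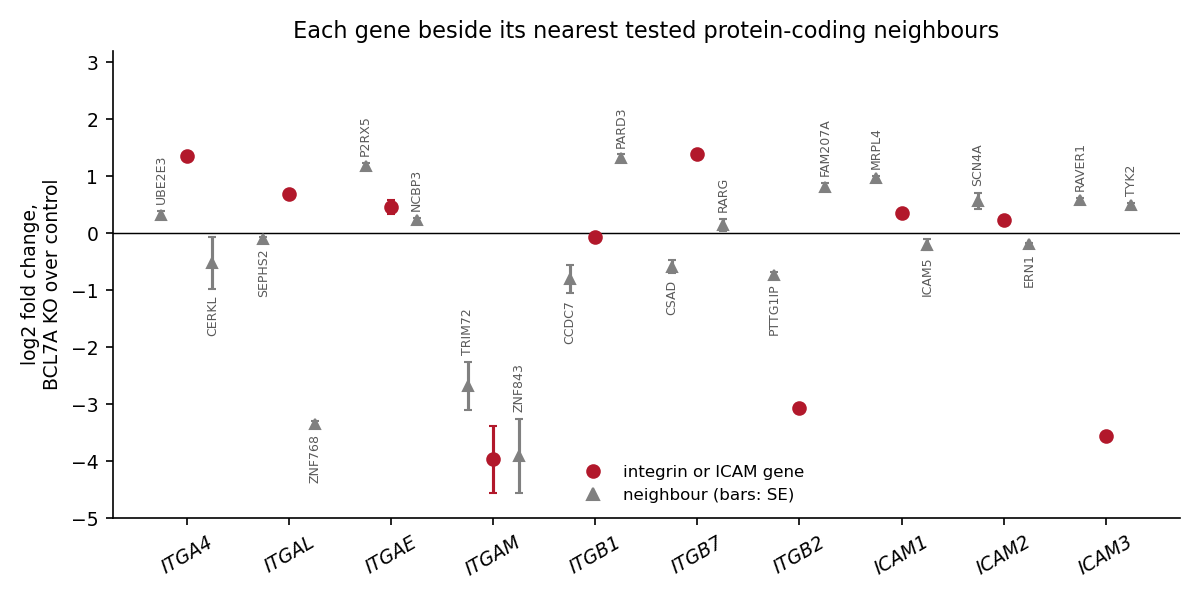
Log2 fold change of BCL7A KO over control for each integrin or ICAM gene (red circle) and for the nearest tested protein-coding gene on its lower (left triangle) and higher (right triangle) coordinate side, with SE bars. ITGB2 and ICAM3 lie at -3.07 and -3.56 with no neighbour below -0.73, while ZNF768 beside ITGAL lies at -3.35.

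Several of these genes overlap others on the opposite strand, and these counts are uncertain because no source used here gives the strand setting of the counting. ITGB7 shares 1886 exonic bases with ZNF740, which fell to 36.7 ± 0.0166 CPM in KO, against 84.3 ± 1.37 CPM in control libraries (log2 fold change -1.20 with SE 0.05, adjusted p = 1.79e-19). ICAM3 shares 2101 exonic bases with the antisense gene AC114271.1, which had 10.8 ± 0.200 CPM in KO and 8.51 ± 0.116 CPM in control libraries (log2 fold change 0.35 with SE 0.11, adjusted p = 0.00681). In both cases the overlapping gene went the other way from the adhesion gene. ITGB2 shares 303 exonic bases with ITGB2-AS1, which fell too, with 0 and 4 counts in KO libraries, against 27 and 35 counts in control libraries. ITGB2-AS1 passed the filter on low counts through the control libraries alone. ITGAE shares 427 exonic bases with HASPIN, a histone kinase gene inside it, which rose to 22.3 ± 0.841 CPM in KO, against 12.2 ± 0.853 CPM in control libraries (log2 fold change 0.87 with SE 0.09, adjusted p = 3.86e-10). HASPIN had more CPM than ITGAE in every library, and its part in the ITGAE difference was not tested.

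The rest of the integrin family was mostly scarce. As background to the counts of the lists, 36.4% of all tested genes rose and 39.8% fell. Of 14 other alpha subunit genes, 8 were tested, of which 4 rose and 4 fell (median log2 fold change -0.23). Of these, 2 rose without KO replicate 1, with DESeq2, with a stricter filter on low counts or with KO counts thinned to control depth. ITGA8, a partner of beta 1, had 200 and 205 CPM in KO libraries, against 29.96 and 30.7 CPM in control libraries (log2 fold change 2.74 with SE 0.04, adjusted p = 1.41e-28). ITGA6, a laminin receptor chain, rose to 10.6 and 10.3 CPM in KO libraries, against 2.48 and 2.16 CPM in control libraries (log2 fold change 2.17 with SE 0.16, adjusted p = 5.40e-13). ITGA3 and ITGAV, which bind laminin and RGD ligands, fell (log2 fold change -1.03 and -0.61, adjusted p = 1.31e-12 and 1.17e-09). ITGA2, which rose, passed the filter on low counts through the KO libraries alone. ITGA5, the fibronectin receptor chain, had 2 counts over the KO libraries and 30 over the control libraries, a ratio of 26.0 for control over KO (95% counting interval 6.61 to 225). Of 5 other beta subunit genes, 4 were tested, of which 2 rose and 2 fell. ITGB5, a partner of alpha V, had 89.5 and 89.6 CPM in KO libraries, against 22.9 and 23.9 CPM in control libraries (log2 fold change 1.93 with SE 0.05, adjusted p = 3.91e-23). ITGB6 had 0 counts in KO libraries, against 22 and 32 counts in control libraries, at least 31.0-fold lower in KO.

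Other ligands of these integrins varied in level. F11R had 33.8 ± 2.38 CPM in KO and 34.3 ± 0.897 CPM in control libraries (SD, n = 2 each), above ICAM2. VCAM1, the main marrow ligand of alpha 4 beta 1, had at most 2 counts in a library and was not tested. Of 13 such genes, 10 were tested, of which 3 rose and 4 fell (median log2 fold change 0.04), and 2 fell without KO replicate 1 or control replicate 2, with DESeq2 or with thinned KO counts. The shares over all tested genes were 36.4% rising and 39.8% falling. FN1, which encodes fibronectin, had 4.76 and 4.55 CPM in KO libraries, against 1.19 and 0.856 CPM in control libraries (log2 fold change 2.19 with SE 0.23, adjusted p = 1.27e-09). JAM3, a ligand of CD11b/CD18, rose and JAM2, a ligand of alpha 4 beta 1, fell (log2 fold change 0.87 and -4.56, adjusted p = 2.37e-11 and 5.19e-11). JAM2, with 4 and 5 counts in KO libraries, against 50 and 77 counts in control libraries, passed the filter through the control libraries alone. So did THBS1, which fell, and ITGA5, ITGB6, RASGRP2 and FERMT1 of the other lists. EMILIN1, which rose, passed it through the KO libraries alone. CDH1, the ligand of alpha E beta 7, MADCAM1 and F11R, a ligand of LFA-1, did not pass (adjusted p = 0.631, 0.711 and 0.780). The CDH1 difference was 0.10 (with SE 0.18), that of MADCAM1 0.20 (with SE 0.46) and that of F11R -0.02 (with SE 0.06). F11R was called lower with upper-quartile factors (-0.15, adjusted p = 0.0276) and with library totals (-0.30, adjusted p = 9.03e-05).

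Genes that promote or restrain integrin activation from inside the cell were listed together and moved both ways. Of 25 genes, 24 were tested, of which 12 rose and 10 fell (median log2 fold change 0.09). Over all tested genes, 36.4% rose and 39.8% fell. FERMT3, the kindlin of blood cells, which binds integrin beta tails, had 222 and 227 CPM in KO libraries, against 110 and 115 CPM in control libraries (log2 fold change 1.00 with SE 0.03, adjusted p = 9.00e-21). RAP1A, a small GTPase upstream of talin, rose (log2 fold change 1.15 with SE 0.04, adjusted p = 6.13e-21). RASGRP2, an exchange factor that activates RAP1, had 1 count over the KO libraries, against 232 and 286 counts in control libraries, a ratio of 899 for control over KO (95% counting interval 161 to 35579). FERMT1, an epithelial kindlin, had 0 counts in KO libraries, against 10.3 and 11.2 CPM in control libraries, at least 258-fold lower in KO. RAPGEF1, an exchange factor for RAP1, and FLNA, a filamin that binds beta tails, fell (log2 fold change -0.76 and -0.36, adjusted p = 1.15e-17 and 2.54e-13). Talin 1 itself, TLN1, chosen after its values were seen, had 263.5 and 269 CPM in KO libraries, against 318 and 304 CPM in control libraries (log2 fold change -0.22 with SE 0.03, adjusted p = 7.80e-08).

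Downstream of bound integrins, 27 of 30 genes were tested, of which 11 rose and 9 fell (median log2 fold change -0.02). Of those that fell, SYK and PARVG passed the filter on low counts through the control libraries alone. Among all tested genes, 36.4% rose and 39.8% fell. VAV1, a signalling protein of blood cells, had 248 and 250 CPM in KO libraries, against 109 and 102 CPM in control libraries (log2 fold change 1.24 with SE 0.03, adjusted p = 6.27e-23). PTK2B, the PYK2 kinase, rose (0.87 with SE 0.03, adjusted p = 4.82e-21), as did ACTN4, CDC42 and DOCK2 (0.65, 0.63 and 0.51). The adaptor gene CRK had 37.6 and 39.9 CPM in KO libraries, against 115 and 110 CPM in control libraries (log2 fold change -1.54 with SE 0.04, adjusted p = 2.78e-22).

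Among 19 other adhesion receptors of the marrow niche, 16 were tested, of which 10 rose and 5 fell (median log2 fold change 0.29). With library totals in place of TMM factors 4 rose, so the count depends on the scaling. Of all tested genes, 36.4% rose and 39.8% fell with TMM factors. MCAM (CD146) had 0.797 and 0.758 CPM in KO libraries, against 109 and 112 CPM in control libraries (log2 fold change -7.15 with SE 0.09, adjusted p = 1.34e-30). L1CAM, which fell, passed the filter on low counts through the control libraries alone. SDC1, PECAM1, NCAM1 and CD28 rose (log2 fold change 1.28, 1.53, 0.96 and 0.59, largest adjusted p = 3.86e-18), and CD47, the "do not eat me" signal, fell (-0.81, adjusted p = 6.29e-18). Over all genes, counts of rising and falling genes were 6506 and 7123, and with library totals in place of TMM factors 4493 and 9346. The 3 largest changes of each sign among the 10 adhesion genes, in ITGB7, ITGA4, ITGAL, ITGAM, ICAM3 and ITGB2, kept their direction and call under both.

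**Figure D5:**
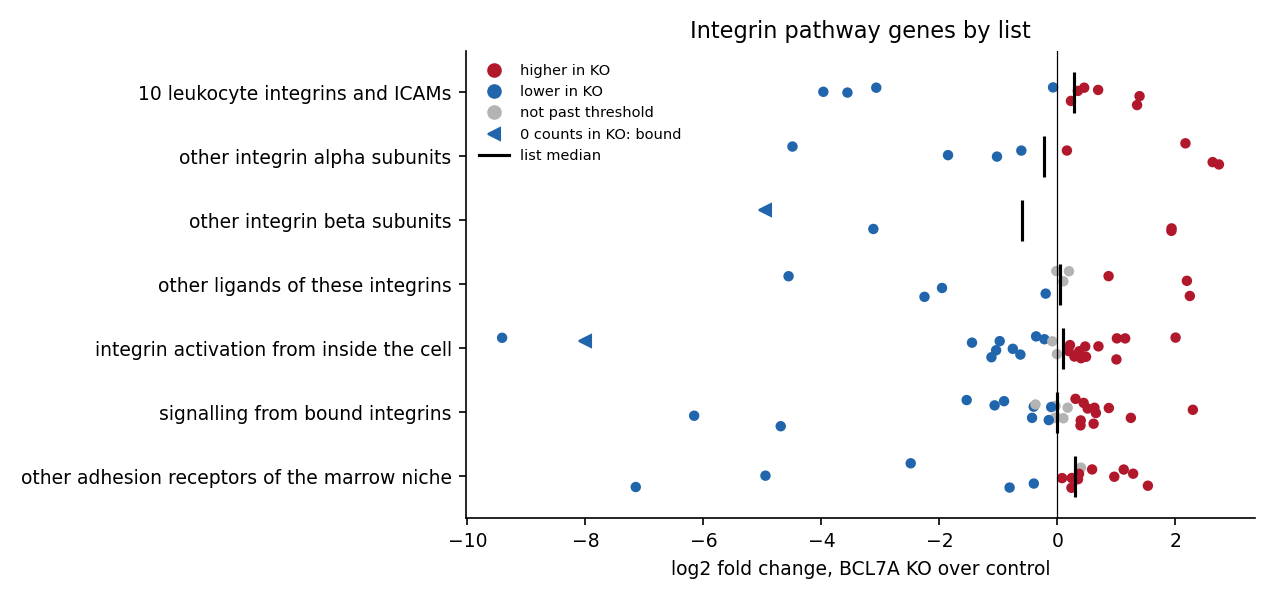
Log2 fold change of BCL7A KO over control for each tested gene of 7 lists (red, higher; blue, lower; grey, not past the threshold; triangle, 0 counts in KO, drawn at its bound), with the list median as a black line. List medians lie between -0.59 and 0.29, and each list holds genes of both signs.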

How the data were processed

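Poly(A) RNA of 4 H929 libraries was sequenced with a stranded kit, per the labels' protocols. The authors deposited estimated counts for each gene name in 1 table, as whole numbers, which were used unchanged. The submitters' processing notes name Salmon 0.12 and GRCh38; no source used here gives the index or strand setting. All 56809 gene names are in GENCODE release 29, which gave coordinates and lengths, and 92 spike-in rows (at most 2 counts each in a library) were left out. Counts were filtered with filterByExpr, scaled with TMM factors (0.909 and 0.906 in KO, 1.10 in both control libraries) and tested with edgeR 4.0.16 (glmQLFit, robust) over 17885 genes, with Benjamini-Hochberg adjustment. SE is the log2 fold change over the root of F. Alternatives used DESeq2 1.42.0, limma 3.58.1 voom, other factors, filters and blocks, thinning and left-out libraries. A group with 0 counts was set to 3 counts over the group. Intervals (exact Clopper-Pearson) cover counting error only. No label says that libraries of a group were separate cultures, so p-values measure the spread between 2 libraries, which may be technical. The code was tested on simulated counts. The genes and lists were chosen with earlier results of these data known. Named genes are the 10, BCL7A, their neighbours and up to 6 per list by smallest p. Up to 3 per list by highest mean CPM that did not pass were named too. TLN1 was added after its values were seen. ITGA2, SYK, PARVG and L1CAM are named only for how they passed the filter on low counts.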

Additional observations from a re-analysis of the deposited data

How the results depend on the processing

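ITGA4, ITGB7, ITGAL, ITGB2, ITGAM and ICAM3 kept their direction and call in all 16 alternatives. The ITGB1 log2 fold change was -0.0732 with DESeq2, -0.0746 with the replicate block and -0.0745 at a threshold of 0.01, none past the threshold, 0.0090 with no filter, and -0.101 to -0.0463 with a library left out. That of ICAM2 was 0.0947 with upper-quartile factors, 0.226 with DESeq2, -0.0522 with library totals and 0.0784 to 0.36 with a library left out. ITGAE was 0.296 with thinned KO counts and 0.172 with library totals, and ICAM1 0.0645 with library totals. Library totals, added after the data were seen, moved the median of all genes by -0.28 and upper-quartile factors by -0.13. With totals 3 of the 10 genes and 4 niche receptors rose. Among other alpha subunits 2 rose with the stricter filter, DESeq2 or thinning, and 2 to 4 with a library left out. Among other ligands 2 fell with DESeq2 or thinning, and 2 to 4 with a library left out. The cause was not tested.

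Of 43 list genes checked, 33 kept direction and call. EMILIN1 and THBS1 lost their calls with DESeq2 (log2 fold change 2.31 and -2.30, adjusted p = 0.0798 and 0.0618). EMILIN1 was 1.77 without control replicate 1, and THBS1 was -1.77 without KO replicate 1. Differences that had not passed turned sign in 7. CDH1 was -0.0338 with upper-quartile factors, -0.181 with totals and -0.166 to 0.439 with a library left out. With upper-quartile factors and with totals, calls of lower were gained by F11R (-0.153 and -0.30), PARVB (-0.185 and -0.332), VCL (-0.149 and -0.296) and SKAP2 (-0.222 and -0.369), and with the stricter filter by PARVB (-0.11) and SKAP2 (-0.146); SKAP2 also gained one without control replicate 1 (-0.141). F11R was 0.0637 with no filter and -0.0838 to 0.0618 with a library left out. PARVB was 0.0317 with no filter. RASGRP1 was 0.0739 with no filter, 0.0437 thinned and -0.153 to 0.14 with a library left out. VCL was 0.068 with no filter and -0.0502 to 0.0058 with a library left out. MADCAM1 was -0.0834 with totals and -0.195 to 0.648 with a library left out. NEDD9 was -0.108 with totals.

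Deviations of same-numbered libraries had a weak negative correlation (-0.198 over genes of at least 10 CPM), and no label says that the numbers pair these libraries. The replicate block called 6365 genes higher and 6922 lower, and 6 and 3 of the 10 adhesion genes. Crossed pairing, added after the data were seen, called 6416 and 6943, and 6 and 4 of the 10.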
